A study of Mus musculus with 6 samples.

Results

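Solute carriers are membrane proteins that move amino acids, sugars, ions, metals and metabolites across the plasma membrane and the membranes of organelles. Their genes carry the symbol Slc, a family number and a member number, and each family is defined by sequence. In the brain, carriers at the meninges and vessels control what enters the tissue, astrocyte carriers clear glutamate from synapses, and oligodendrocytes need carriers for the lipids, metals and metabolites that go into myelin. The carriers described here are all genes of the transcript table whose symbol begins with Slc and a number and whose entry names no second gene. This rule gave 131 of the 6357 genes found, with 614 of the 36303 transcripts assigned to a single gene. Of these 131 names, 4 (Slc4a1ap, Slc7a6os, Slc9a3r1 and Slc9a3r2) denote proteins that are named after a carrier and are not carriers themselves, and together with the rest they stay in every count.

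The transcripts came from 6 single cells of the brain of CD-1 mice, a strain that the labels give together with an embryonic stage for every cell, captured on the Fluidigm C1 system; the study places them in hippocampus and cortex. No genetic change or treatment is given for any cell, and no animal is named. The first pair is called oligodendrocyte progenitor in the labels and vascular and leptomeningeal cells (VLMCs, fibroblast-like cells of the meninges and vessel walls) in the study. The other 4 cells are oligodendrocytes, the myelinating cells of the central nervous system, 2 of an immature stage (Oligo1-1 and Oligo1-2) and 2 of a mature myelinating stage (Oligo5-1 and Oligo5-2). Each value is a number of transcripts, that is, of cDNA molecules told apart by a unique molecular identifier (UMI) and read with PacBio long reads. As no animal is named, each cell type stands for 1 sample. No test was therefore run between the types, and all intervals cover counting error only.

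VLMC-1 held 2338 transcripts and VLMC-2 held 4689, the Oligo1 pair 11483 and 6043, and the Oligo5 pair 5895 and 6211. At 3 counts, a carrier with no transcript may still make up to 0.128% and 0.0640% of the transcripts of the VLMCs, 0.0261% and 0.0496% of the Oligo1 cells and 0.0509% and 0.0483% of the Oligo5 cells. The markers went with the name VLMC and not with the labels: leaving out Slc6a13, 8 and 9 of 9 VLMC markers were found in VLMC-1 and VLMC-2 (101 and 253 transcripts), while of 10 oligodendrocyte markers none was found there and 9 or 10 were found in each oligodendrocyte. Of the progenitor markers, Pdgfra alone was found in the VLMCs, which express it as well. Both Oligo5 cells stood apart. Oligo5-2 held 54 transcripts of 7 of 10 neuron markers, among them Snap25, Syt1 and Rbfox3, against 0 to 3 transcripts in the other cells. Oligo5-1 held 16 transcripts of 5 endothelial markers other than carriers (Cldn5, Ly6c1, Slco1a4, Itm2a and Bsg), while Itm2a and Bsg alone gave 15 in VLMC-2, and the remaining cells held 0 to 3. Results that rest on either cell are given below with these values.

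Most carriers were found in few copies. The median was 2 transcripts over all cells, 52 carriers had 1 transcript, and 15 had 10 or more. VLMC-1 and VLMC-2 held 20 and 33 carriers, the Oligo1 pair 47 and 35 and the Oligo5 pair 44 and 52. In 69 carriers (52.7%) the transcripts came from 1 cell, against 48.5% of all genes. Slc25a4 was the single carrier found in all 6 cells (0.763% of the carriers, against 1.04% of all genes). It encodes the ADP/ATP carrier of the mitochondrial inner membrane.

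Of the 131 carriers, 21 were found in VLMCs only (16.0%, against 13.5% of all genes), 90 in oligodendrocytes only (68.7%, against 65.3%) and 20 in both (15.3%, against 21.2%). These counts are not at equal depth, since the VLMCs held 19.2% of all transcripts. At equal depth, with the oligodendrocytes rarefied to the VLMC total, the mean numbers were 30.8 in VLMCs only, 40.7 in oligodendrocytes only and 10.2 in both. These are 37.7%, 49.8% and 12.4% of the carriers found at that depth, against 34.2%, 46.7% and 19.1% for all genes. VLMC-2 decided much of the VLMC counts: without it, 13 carriers were found in VLMCs only and 7 in both. Without both Oligo5 cells, 46 carriers were found in oligodendrocytes only. Shares of all genes were not counted with cells left out.

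Carriers made up 1.92% of the transcripts of VLMC-1 (exact 95% interval 1.41 to 2.57) and 2.60% of VLMC-2 (2.17 to 3.10). Oligo1-1 gave 1.17% (0.979 to 1.38) and Oligo1-2 gave 1.75% (1.44 to 2.12). The Oligo5 cells gave 1.66% (1.35 to 2.02) and 1.75% (1.44 to 2.11). The mean was 2.26% ± 0.479 (SD, n = 2 cells) in VLMCs and 1.58% ± 0.282 (SD, n = 4 cells of both stages) in oligodendrocytes, where the SD is the spread between cells and not between animals. Both VLMCs were above every oligodendrocyte, but the intervals of VLMC-1 overlapped those of 3 oligodendrocytes. Of the 167 carrier transcripts of the VLMCs, 34 were of Slc6a13, itself a VLMC marker, and 22 of Slc1a3. The 447 of the oligodendrocytes held 0 and 4 of these genes. Slc12a2 and Slc44a1 went the other way, with 63 and 40 transcripts in the oligodendrocytes and 0 in the VLMCs. How far single genes account for the difference was not tested.

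Slc6a13, a transporter of GABA and taurine known from the leptomeninges, was the carrier with the most transcripts in VLMCs. It had 11 transcripts in VLMC-1 (0.470%, interval 0.235 to 0.840), 23 in VLMC-2 (0.491%, interval 0.311 to 0.735) and none in any oligodendrocyte. Against 3 counts over the oligodendrocytes, its share was at least 47.8-fold higher in VLMCs, and the intervals of both VLMCs overlapped. This bound and those below take the count of the side with transcripts as exact and leave out its counting error. A single pair of Slc6a13 transcripts, read 6 times in VLMC-1 and 26 times in VLMC-2, had the same UMI and ends within 5 bp, the only such pair among carriers, against 207 pairs over all genes. Slc6a13 also stands in the list of VLMC markers used to check the cells.

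Slc7a11, the light chain of the exchanger that takes up cystine for glutamate, had 3 transcripts in VLMC-1 and 10 in VLMC-2 (0.128% and 0.213%), at least 18.3-fold higher than in oligodendrocytes. Slc6a20a, a proline transporter, had 1 and 7 transcripts and was at least 11.2-fold higher. Slc16a12, a creatine transporter, had 4 and 3 transcripts and was at least 9.84-fold higher. Slc22a6, an organic anion transporter, had 4 and 1 transcripts and was at least 7.03-fold higher. None of these had a transcript in an oligodendrocyte. The bounds rest on the depth of the oligodendrocytes and take the VLMC counts as exact. Without Oligo1-1 they were 29.3 for Slc6a13, 11.2 for Slc7a11, 6.89 for Slc6a20a, 6.03 for Slc16a12 and 4.30 for Slc22a6. Without both Oligo5 cells they were 28.3, 10.8, 6.65, 5.82 and 4.16 in the same order.

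Of the 20 carriers found on both sides, the 4 named ones other than Slc1a3 are given here. Slc3a2, the heavy chain that pairs with Slc7a11 and other light chains, had 5 transcripts in VLMC-2, 2, 1 and 2 in Oligo1-1, Oligo1-2 and Oligo5-1, and none in VLMC-1 or Oligo5-2. Its share was 4.22-fold higher in VLMCs, with an interval from 0.970 to 18.3. Slc25a4 had 2, 9, 6, 7, 5 and 6 transcripts in the order of cells above, a ratio of VLMC to oligodendrocyte share of 1.93 (0.855 to 4.10). Slc25a3, the mitochondrial phosphate carrier, had 2, 2, 0, 3, 5 and 2 transcripts and a ratio of 1.69 (0.386 to 5.85). Slc38a2, a neutral amino acid transporter, had 0, 4, 2, 1, 3 and 1 transcripts and a ratio of 2.41 (0.517 to 9.48). For these 4 carriers the intervals included 1, and no difference was detectable at this depth.

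**Figure D1:**
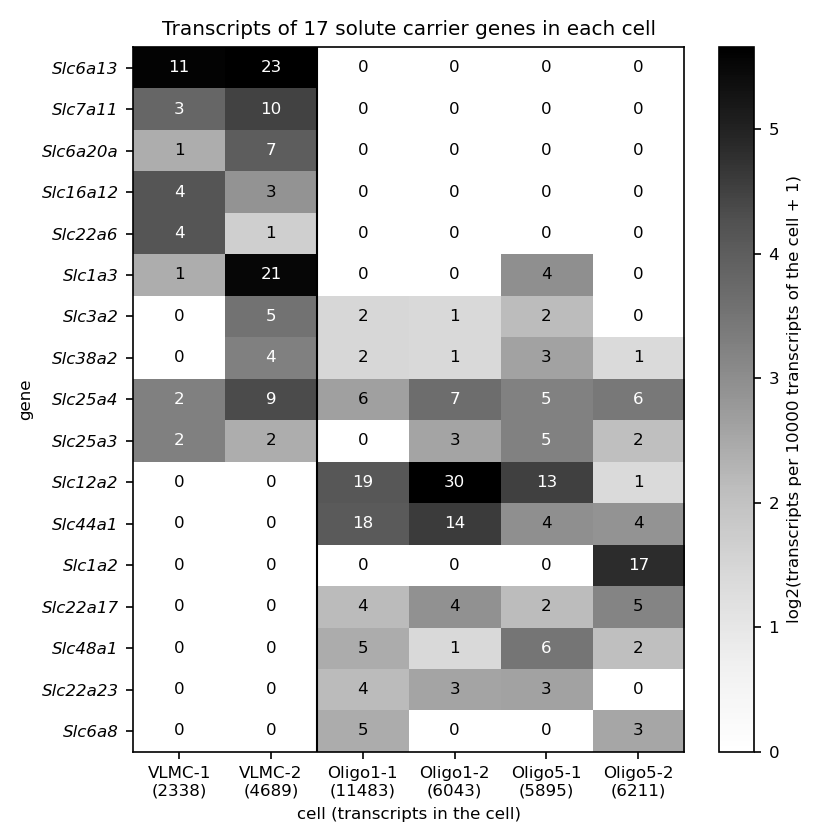
Number of transcripts of 17 solute carrier genes (rows) in each of the 6 cells (columns, with the transcripts in the cell), with the VLMCs left of the vertical line. Slc6a13 has 11 and 23 transcripts in the VLMCs and none to the right of the line, Slc12a2 and Slc44a1 are at 0 in both VLMCs, and the 17 transcripts of Slc1a2 all lie in Oligo5-2.

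Slc12a2, which carries sodium, potassium and chloride together, had the most transcripts of all carriers. The Oligo1 pair held 19 and 30 of its transcripts (0.165% and 0.496%), the Oligo5 pair 13 and 1 (0.221% and 0.0161%) and the VLMCs none. Its share was at least 4.98-fold higher in oligodendrocytes, and among these Oligo5-2 was lowest by far. Slc44a1, a choline transporter, had 18, 14, 4 and 4 transcripts in the same cells and none in the VLMCs, at least 3.16-fold higher. As upper bounds of the VLMC share over the oligodendrocyte share, with the oligodendrocyte counts taken as exact, these values are 0.201 and 0.316. Without VLMC-2 the bounds were 0.604 and 0.951, and without VLMC-1 0.301 and 0.474. For Slc12a2 the bound was 0.305 without Oligo1-2.

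Slc22a17, known as a receptor for lipocalin, had 4, 4, 2 and 5 transcripts in the oligodendrocytes, and Slc48a1, a heme transporter, had 5, 1, 6 and 2. Against 3 counts over the VLMCs, their shares came to 1.19-fold and 1.11-fold higher, with the oligodendrocyte counts taken as exact. Counting error of these counts is left out, so no difference from the VLMCs can be stated for them. Slc22a23, whose substrate is not known, had 4, 3, 3 and 0. Slc6a8, a creatine transporter, had 5, 0, 0 and 3. For Slc22a23 and Slc6a8 no difference from the VLMCs was detectable.

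Of the 32 carriers with 5 or more transcripts, 8 (25%) were 4-fold or more higher in VLMCs, against 16.4% of the 1713 genes with as many transcripts. These were Slc16a12, Slc1a3, Slc22a6, Slc22a8, Slc3a2, Slc6a13, Slc6a20a and Slc7a11. The call goes by the ratio alone, and for Slc3a2, with all its VLMC transcripts in VLMC-2, the interval included 1. Slc12a2 alone (3.12%, against 3.21%) was 4-fold or more higher in oligodendrocytes, by a bound that takes its own count as exact. With UMIs read 2 or more times these counts were 4 and 0. This filter took out transcripts with 1 read, unevenly between the cells. They were 46.7% and 49.2% of the carrier transcripts in the VLMCs and 64.9%, 79.2%, 48.0% and 79.8% in the oligodendrocytes. The Slc12a2 call was also lost among transcripts with a read of the long run and with UMIs merged over shifts. With fewer VLMC transcripts, a carrier absent from the VLMCs needs more transcripts to pass the same bound. In both VLMCs 5 carriers (15.6%, against 9.98%) had a larger share than in every oligodendrocyte, namely Slc16a12, Slc22a6, Slc6a13, Slc6a20a and Slc7a11. In every oligodendrocyte 4 carriers (12.5%, against 14.6%) had a larger share than in both VLMCs, namely Slc12a2, Slc22a17, Slc44a1 and Slc48a1. Without VLMC-2, 1 carrier was 4-fold or more higher in VLMCs and 2 had a larger share in VLMC-1 than in every oligodendrocyte. Without VLMC-1, 7 were 4-fold or more higher in VLMCs and 10 had a larger share in VLMC-2 than in every oligodendrocyte. Shares of all genes were not counted with this filter or with cells left out.

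Some carriers came mainly from 1 cell, and 2 of them are glutamate transporters of astrocytes. Slc1a2, which clears most glutamate in the forebrain, had 17 transcripts in Oligo5-2 (0.274%, interval 0.160 to 0.438) and none in the other 5 cells. Slc1a3, the glutamate transporter of radial glia and astrocytes, had 1 transcript in VLMC-1 (0.0428%), 21 in VLMC-2 (0.448%, interval 0.277 to 0.684), 4 in Oligo5-1 (0.0679%) and none in the other oligodendrocytes. The pooled share of Slc1a3 was 23.2-fold higher in VLMCs (interval 7.88 to 92.6). Without VLMC-2 it was 3.17-fold higher, resting on 1 transcript of VLMC-1, and without Oligo1-1 it was 14.2-fold higher. Besides these carriers, the list of astrocyte markers gave 4 transcripts of Gja1 in VLMC-1, 8 of Gjb6 in VLMC-2, 3 of Aldoc in Oligo1-1 and none in the other cells, with Aqp4 and Gfap at 0 in every cell. The part of the neuron transcripts of Oligo5-2 in the Slc1a2 count was not tested.

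Some other carriers had transcripts in the cells that stood apart. Slc22a8, an organic anion transporter of vessels and choroid plexus, had 5 transcripts in VLMC-2 and 3 in Oligo5-1, a ratio of 7.03 (1.37 to 45.3). Slc2a1, the glucose transporter of the blood-brain barrier, had 1 transcript in Oligo1-1 and 3 each in Oligo5-1 and Oligo5-2, the latter with no endothelial marker other than a carrier. Slc19a3, a thiamine transporter, had 2 transcripts and Slc7a5, a transporter of large neutral amino acids, had 1, all in Oligo5-1. In Oligo5-2, Slc8a1, the sodium-calcium exchanger, had 4 transcripts, Slc4a10, a bicarbonate transporter, had 3, and Slc12a5, the chloride exporter of neurons, and Slc6a7, a proline transporter, had 1 each, with none elsewhere. The carriers in the neuron list, Slc17a7 and Slc32a1, were at 0 in Oligo5-2. The part of endothelial or neuronal transcripts in these counts was not tested.

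As a description of likeness, the cosine of the shares in the 6 cells was taken between each of the 3 carriers and every gene with 5 or more transcripts. Closest to Slc6a13 were Plk2 (3 and 6 transcripts in the VLMCs), Lpp and Lysmd3 (2 and 4 each), at a cosine of 0.9998. Closest to Slc1a3 were Rnd3 (0.9954), Gpbp1 (0.9923) and Fstl1 (0.9887). For Slc1a2, 21 genes found only in Oligo5-2 tied at 1.000, led by Snap25 with 19 transcripts, Scn2a1 with 14 and Gria2 with 13.

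Grouped by what they carry, the 23 genes for amino acids and neurotransmitters had the largest difference between the sides. They had 19 and 77 transcripts in VLMC-1 and VLMC-2 and 16, 5, 14 and 28 in the oligodendrocytes. These are 1.37% of the VLMC transcripts against 0.213% of the oligodendrocyte transcripts. Of the 23 genes, 6 were found in VLMCs only, 13 in oligodendrocytes only and 4 in both, where all genes gave 13.5%, 65.3% and 21.2%. The SLC6 family, which takes up neurotransmitters, amino acids and creatine with sodium, gave 0.598% against 0.0574%. The SLC1 family of glutamate and neutral amino acid transporters gave 0.370% against 0.0776%, a difference that rests on VLMC-2, with 2 transcripts in VLMC-1, 24 in VLMC-2 and 1, 1, 4 and 17 in the oligodendrocytes. The SLC7 family, which exchanges amino acids, gave 0.228% against 0.0236%. Much of the group came from few genes, with 34 VLMC transcripts of Slc6a13 and 22 of Slc1a3, and 17 transcripts of Slc1a2 in Oligo5-2.

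The 20 genes for inorganic ions differed the other way, with 0.0996% of the VLMC transcripts and 0.304% of the oligodendrocyte transcripts, most of it from Slc12a2. The 24 genes of the SLC25 family of mitochondrial carriers were even, at 0.342% and 0.290%, and so were the 21 genes for metals and heme, at 0.185% and 0.179%. Among the latter, all 3 found members of the SLC41 magnesium family (Slc41a1, Slc41a2 and Slc41a3) were found in VLMCs only, on 4 transcripts in all. Of all genes, 13.5% were found in VLMCs only. Of the 8 members of the SLC39 family of zinc and other metal importers, 6 were found in oligodendrocytes only and 2 in both. The 5 genes for organic ions gave 0.142% and 0.115%. The 11 genes for other metabolites, vitamins and lipids gave 0.128% and 0.213%, and the 23 genes for sugars, polyols and nucleotide sugars 0.0854% and 0.179%. Of the 15 members of the SLC35 family of nucleotide sugar transporters in the Golgi and endoplasmic reticulum, 14 were found in oligodendrocytes only and 1, Slc35a1, in VLMCs only. These family counts rest on few transcripts a gene (37 for the SLC35 family, 21 for the SLC39 family). Of all genes, 65.3% were found in oligodendrocytes only. A member with no VLMC transcript may still make up to 0.0427% of the VLMC transcripts, a limit for a single gene and not for a family. The part of depth in the family counts was not tested.

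**Figure D2:**
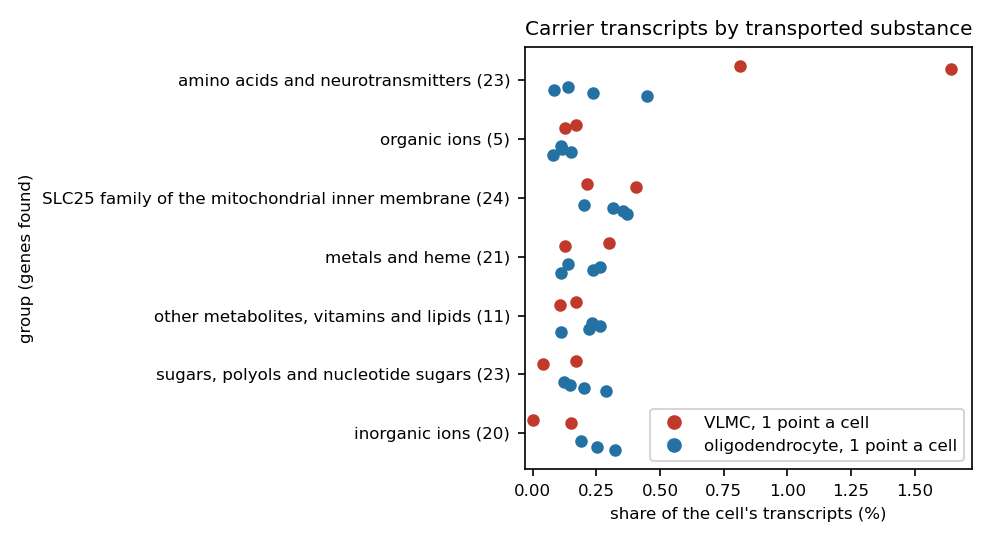
Share of the transcripts of each cell that came from carriers of each group (x axis, percent), with 1 point a cell and the number of genes found in each group on the y axis. Carriers of amino acids and neurotransmitters make up 1.37% of the VLMC transcripts and 0.213% of those of oligodendrocytes, and carriers of inorganic ions 0.0996% and 0.304%.

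Beside the carriers, a list of names taken by pattern for other transporters held 39 names and 234 transcripts. The pattern was meant for ATP-binding cassette transporters, sodium and calcium pumps, aquaporins (none found), organic anion transporting polypeptides and others. Of the 39 names, 5 were found in VLMCs only, 26 in oligodendrocytes only and 8 in both, where all genes gave 13.5%, 65.3% and 21.2%. Abcd3, a transporter of peroxisomes, had 12, 5, 4 and 2 transcripts in the oligodendrocytes and none in the VLMCs. The list goes by name alone, and whether each name is that of a transporter was not checked. Its pattern also took in 7 names with 26 transcripts, such as Tmem163, that share only letters with the intended family.

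The long reads also give the structure of each transcript, in relation to the GENCODE M21 gene models on GRCm38 (mm10). Of the 614 carrier transcripts, 144 (23.5%, from 42 genes) covered an annotated first exon, 560 (91.2%) the last exon and 92 (15.0%, from 30 genes) the whole coding region. A single aligned block made up 317 transcripts (51.6%), 305 of them within the last exon. First exons were covered by 46.7% and 35.2% of the carrier transcripts of the VLMCs, 32.8% and 4.72% of those of the Oligo1 pair and 7.14% and 22% of those of the Oligo5 pair. The median aligned length was 968 bp and the longest was 4319 bp, a Slc38a2 transcript of Oligo5-2. Of 1709 introns, 60 are not annotated.

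An isoform is counted here as a distinct combination of exon structure, junctions, 5′ site and 3′ site among transcripts that cover a first exon, with ends within 5 bp and junctions within 1 bp taken as the same. The 6 carriers with the most such transcripts were Slc6a13 (13 isoforms of 24 transcripts), Slc25a4 (9 of 23), Slc1a3 (5 of 11), Slc3a2 (3 of 6), Slc48a1 (5 of 6) and Slc6a8 (4 of 6), 39 isoforms in all. Without VLMC-2 there were 24. In this count, Slc6a13 had more isoforms than Slc25a4 at nearly the same number of transcripts.

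Slc6a13 lies on the plus strand of chr6:121300227-121337733. All 24 transcripts that cover its first exon began at a single 5′ site, 121300288, which is also the RefSeq start. Of these, 12 transcripts held all 15 exons (2 in VLMC-1 and 10 in VLMC-2, median 2158 bp). Another 6 (2 and 4) ended soon after exon 2, in the sequence of intron 2, as in the annotated model Slc6a13-203 (median 637 bp). Both VLMCs held both forms. In VLMC-2, 2 transcripts ended after 14 exons, at 121336862. VLMC-1 held a transcript that ran from exon 8 through exon 9 into the next intron. It also held 2 transcripts with a block between exons 7 and 8 that lies outside the exons of Slc6a13-201. These 3 transcripts ended at 121333590, 1 bp before the annotated end of model Slc6a13-202. A further 2 of VLMC-1 had a block in intron 5. The choice after exon 2 is shown in the sequences, where capitals mark the bases that follow the last base shared by both forms, chr6:121302884-121302903 for the shared part. The first form goes on at chr6:121318242-121318261 and the second at chr6:121302904-121302923.
Slc6a13 exon 2 to exon 3: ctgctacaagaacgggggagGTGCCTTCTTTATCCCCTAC
Slc6a13 exon 2 running on: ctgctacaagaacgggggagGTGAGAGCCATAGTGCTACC

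**Figure D3:**
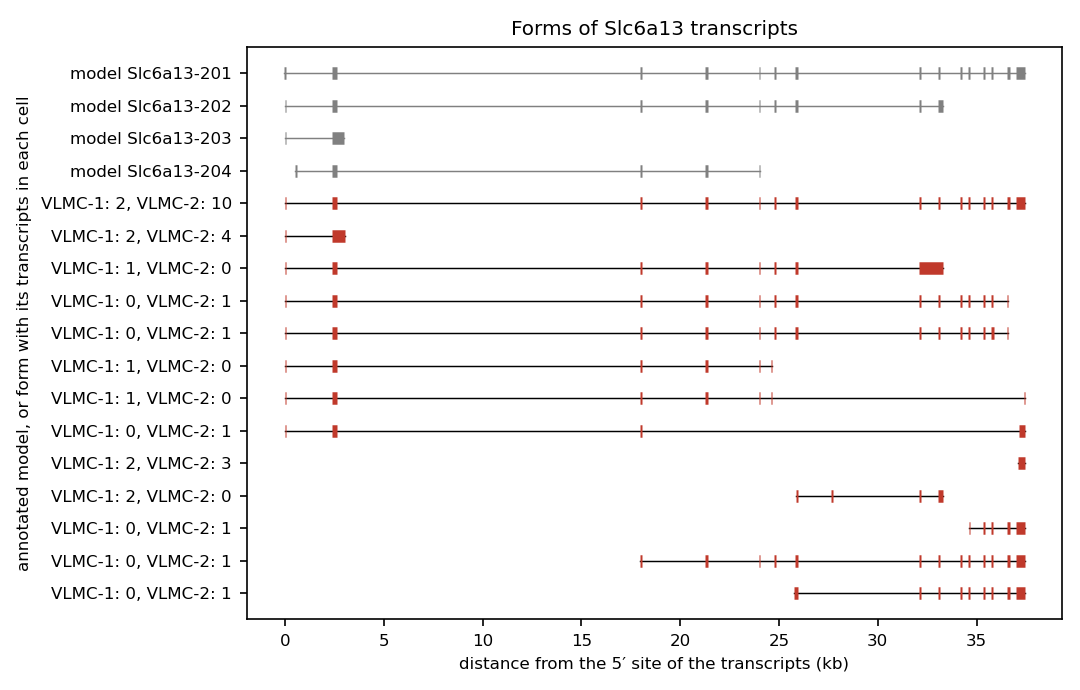
Aligned blocks of the forms of Slc6a13 transcripts (rows, with the transcripts in each cell) below the annotated models, by distance from the 5′ site in kb. The 12 transcripts with 15 exons and the 6 transcripts that end after exon 2 begin at the same site.

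Slc1a3 lies on the minus strand of chr15:8634124-8710764. In VLMC-1 1 transcript and in VLMC-2 6 transcripts held all 10 exons (median 3857 bp). In VLMC-2 3 transcripts joined exon 3 to the last exon of model Slc1a3-207, an unannotated junction that leaves out the exon before it in that model, and ended 205 bp past the annotated end of that model. VLMC-2 also held 9 transcripts of a single block in exon 10 and 3 of exons 9 and 10. In Oligo5-1, 3 transcripts were single blocks in exon 10, as in VLMC-2, and 1 had 2 exons that matched Slc1a3-206. The end at 8634127 was shared, with 11 transcripts in VLMC-2 and 2 in Oligo5-1. With 4 transcripts in Oligo5-1, the long forms cannot be called absent there. The sequences show both ways on from exon 3 (chr15:8688288-8688307, minus strand), with the bases after the junction in capitals. They lie at chr15:8651034-8651053 for exon 4 and at chr15:8681157-8681176 for the exon of Slc1a3-207.
Slc1a3 exon 3 to exon 4: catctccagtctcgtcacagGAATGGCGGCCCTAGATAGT
Slc1a3 exon 3 to Slc1a3-207: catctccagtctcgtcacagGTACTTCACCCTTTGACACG

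Slc44a1 lies on the plus strand of chr4:53440413-53622478. Of its 40 transcripts, 37 ended at exon 16, 7 bp before the annotated end, and 3 (1 in Oligo1-1 and 2 in Oligo1-2) used the last exon of model Slc44a1-205. In Oligo1-1, 2 transcripts lacked exon 13 and had shortened exons 12 and 14. The sequences show both continuations of exon 15 (chr4:53563202-53563221, plus strand), in capitals after the junction, from chr4:53621595-53621614 and chr4:53565397-53565416.
Slc44a1 exon 15 to exon 16: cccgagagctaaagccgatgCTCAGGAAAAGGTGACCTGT
Slc44a1 exon 15 to Slc44a1-205: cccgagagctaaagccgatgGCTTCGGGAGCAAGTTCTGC

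Slc25a4, on the minus strand of chr8:46206797-46211284, had 35 transcripts, 23 of which began at a single 5′ site, 46211030. Of these, 21 held the 4 exons in order and came from all 6 cells (2, 7, 5, 1, 3 and 3), and 2 of VLMC-2 had a 60-bp gap in exon 1. Diversity in Slc25a4 lay at the 3′ end, with 7 sites that held 8, 8, 7, 5, 3, 2 and 2 transcripts. At 3 of these sites, with 8, 5 and 3 transcripts, the next 10 genomic bases held 7, 9 and 7 A. The site with 7 transcripts, at 46207389, and that with 5, at 46207397, lie at either end of the same run of A. The number of sites therefore counts this run more than once, and how many are separate ends was not tested. Slc3a2 began mainly at 8713872 (5 transcripts) on chr19 and ended at 8707568 (8 transcripts) or, in 2 transcripts of VLMC-2, at 8706881. Slc48a1, on chr15:97778520-97792692, ended at a single site, 97791804, in all 14 transcripts. For Slc6a8 on chrX:73673150-73682502, 5 transcripts (2 in Oligo1-1 and 3 in Oligo5-2) began 1794 to 1801 bp upstream of model Slc6a8-201. These 5 ended in the intron after exon 1, at 73674253 or 73674240. In Oligo1-1, 1 transcript had blocks in all 13 exons, with exon 9 at an edge other than that of the model. No Slc6a8 transcript held the whole coding region. The 60 bases before and 15 bases from the single or main 5′ site of 3 carriers are shown, the latter in capitals, from RefSeq promoter windows on GRCm38.p6. They lie at chr6:121300228-121300302 for Slc6a13 (plus strand), chr8:46211016-46211090 for Slc25a4 (minus strand) and chr19:8713858-8713932 for Slc3a2 (minus strand).
Slc6a13: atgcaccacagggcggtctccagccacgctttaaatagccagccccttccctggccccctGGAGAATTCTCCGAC
Slc25a4: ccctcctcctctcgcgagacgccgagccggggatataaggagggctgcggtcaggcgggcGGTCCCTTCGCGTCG
Slc3a2: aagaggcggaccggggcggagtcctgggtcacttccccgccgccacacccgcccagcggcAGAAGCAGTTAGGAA

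The motifs searched, on both strands, were the TATA box (spelled TATAAA), the CCAAT box by its own letters, and the GC box (spelled GGGCGG). In these 60-base stretches GGGCGG was found on the printed strand before Slc6a13, its first base 50 bases before the site, and before Slc3a2, 47 bases before the site. Before Slc3a2 it was also found on the other strand. The other motifs were not found in these windows. In all RefSeq windows, the 60 bases before the start held GGGCGG in 18.6%, CCAAT in 10.8% and TATAAA in 3.92%. Over the whole 300-base windows, of which 130 belonged to 102 of the carriers, GGGCGG was in 66.2% of the carrier windows and 35.7% of all, CCAAT in 36.9% and 37.4%, and TATAAA in 8.46% and 13.6%. The carrier windows are of genes found in these cells, while all 32851 windows include genes that were not found. The other genes found were not counted apart, so these values do not show a trait of carriers.

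Slc12a2 and Slc1a2 were read mainly from their last exon, while 13 of 40 transcripts of Slc44a1 and 6 of 15 of Slc22a17 were single blocks in the last exon. None of the 63 Slc12a2 transcripts covered a first exon, and 51 were a single block in exon 27. Of these 63, 47 ended within 20 bp of the annotated end, 8 (1 in Oligo1-1 and 7 in Oligo1-2) ended 1813 bp before it and 4 ended in exon 22. All 17 Slc1a2 transcripts were single blocks in exon 11, with a median of 483 bp, and used 9 sites at the 3′ end, 7 transcripts ending 6 bp before the end of Slc1a2-202. All 13 Slc7a11 transcripts were single blocks in exon 12. In Slc16a12, the 4 transcripts of VLMC-1 ended 985 to 993 bp past the annotated end and the 3 of VLMC-2 ended 3 bp before it, so the VLMCs shared no site. In Slc22a6, 3 transcripts of VLMC-1 held all 10 exons and ended 1776 bp before the annotated end. All 8 Slc6a20a transcripts ended at 1 site in both VLMCs.

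Over all carriers, 384 transcripts ended within 20 bp of an annotated end and 230 ended elsewhere. A poly(A) signal, AATAAA or ATTAAA on the transcript strand, stood in the last 30 bases of 312 of 369 of the former (84.6%) and 93 of 208 of the latter (44.7%), for those with enough sequence in the model. Windows tiled over the last exons held a signal in 3.06%. The genomic sequence after the end, where a run of A can bind an oligo(dT) primer as a poly(A) tail does, held 7 or more A in the next 10 bases for 10 of 161 (6.21%) of the former and 76 of 208 (36.5%) of the latter, against 1.43% of tiled windows. Of the other ends, 66 had such A bases and no signal, and 83 had a signal and no such A bases. Carrier transcripts ended within 20 bp of an annotated end in 62.2% and 63.1% of cases in the VLMCs, 62.7% and 69.8% in the Oligo1 pair and 63.3% and 54.1% in the Oligo5 pair. Examples with a signal show the last 30 bases, the signal in capitals, and lie at chr6:121337689-121337718 and chr15:8634127-8634156 (minus strand).
Slc6a13, 19 transcripts: ttccatgtcATTAAAtccaacttcctctca
Slc1a3, 14 transcripts: attttcAATAAAgaaaaaatagttttacat

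Among the ends with A bases after them are 6 transcripts of Slc1a3 and 8 of Slc25a4. Here the last 20 bases are followed by the next 10 genomic bases in capitals, at chr15:8634735-8634764 and chr8:46207336-46207365, both on the minus strand, with 10 and 7 A. Another end of Slc25a4, further on and also of 8 transcripts, has a signal and is shown with it in capitals (chr8:46207174-46207203, minus strand). How many of the sites with A bases are ends of messenger RNA was not tested.
Slc1a3, 6 transcripts: tgcttgtttatgtccctaccAAAAAAAAAA
Slc25a4, 8 transcripts, A after the end: gaccgtaaggaatacctcagAAAAAAATGC
Slc25a4, 8 transcripts, with a signal: tgtgactcattAATAAAgactactcaatac

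**Figure D4:**
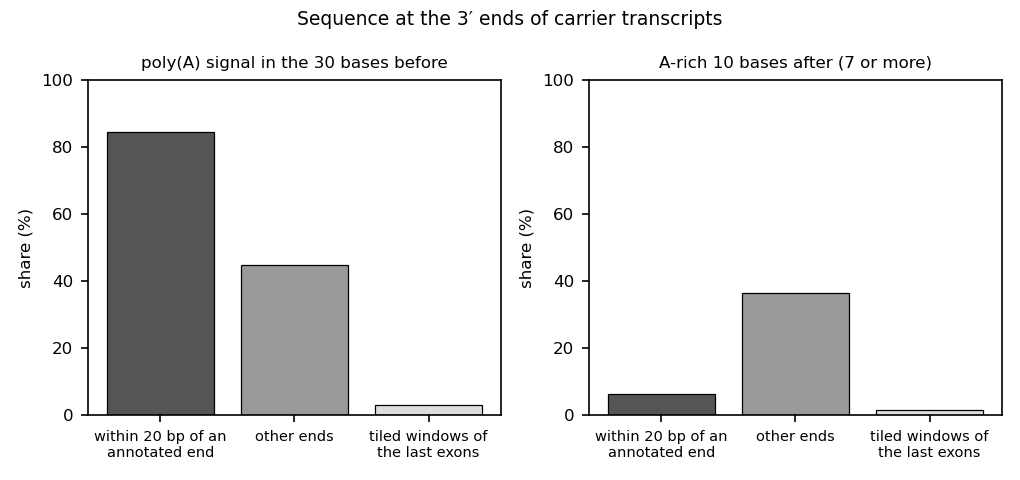
Share (%) of carrier 3′ ends with a poly(A) signal in the last 30 bases (left) and with 7 or more A in the next 10 bases (right), for ends within 20 bp of an annotated end, other ends and tiled windows of last exons. The signal is at 84.6%, 44.7% and 3.06%, and the A bases at 6.21%, 36.5% and 1.43%.

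To ask whether carrier transcripts were read differently from the other genes of the same cell, the difference was taken within each of the 6 cells and tested by an exact two-sided sign-flip permutation test, whose smallest possible p is 0.0312, with Benjamini-Hochberg adjustment over 3 measures. As no animal is named, these p-values measure only the spread between the 6 cells. The median aligned length averaged 1000 bp in carriers and 910 bp in other genes, a difference of 89.4 bp ± 180 (SD, n = 6), higher in 4 of 6 cells (exact p = 0.281, adjusted 0.281). Against other genes with models of 1500 bp or more its direction turned, to -4.92 bp (exact adjusted p = 0.969). First exons were covered by 24.8% and 36.3%, a difference of -11.6 percentage points ± 12.3 (SD, n = 6), lower in 5 of 6 cells and higher in VLMC-1 (exact p = 0.0938, adjusted 0.141). Transcripts with 1 read made up 61.3% and 59.0%, a difference of 2.33 points ± 2.22 (SD, n = 6), higher in 5 of 6 cells (exact p = 0.0938, adjusted 0.141). None passed the threshold of 0.05. Annotated models of carriers were longer, with a median of 3499 bp against 3265 bp in 6184 other genes.

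**Figure D5:**
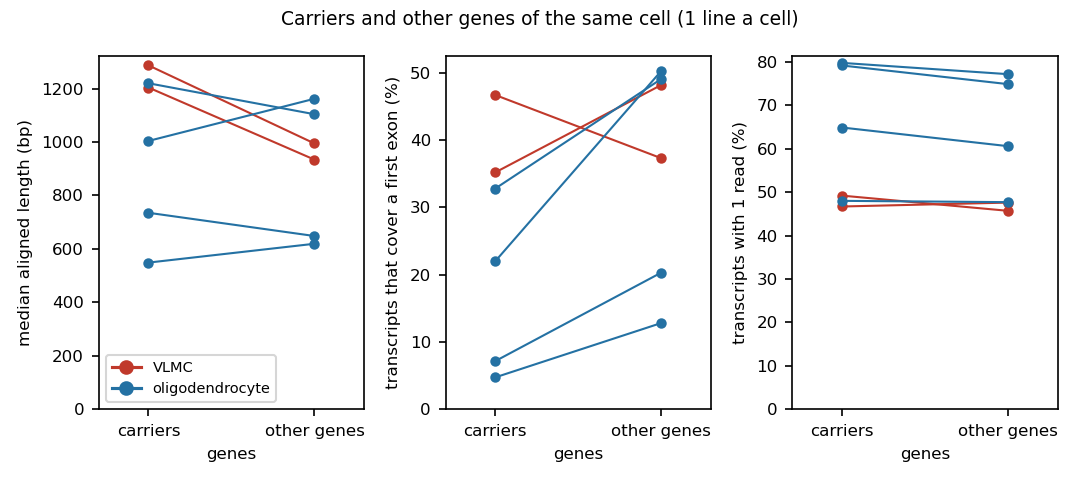
Median aligned length (bp), share of transcripts that cover a first exon (%) and share with 1 read (%) for carriers and for the other genes of the same cell, 1 line a cell. The lines for first exons rise from carriers to other genes in 5 of 6 cells, and the lines for length go either way.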

How the data were processed

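The deposited counts give the number of reads per transcript, after the authors' merging, beside the positions of its blocks on the genome. Per the study's methods, concatenated reads were split, those with a poly(A) stretch and a matching barcode at each end were mapped with GMAP, and reads of a UMI were merged. The submitters' processing notes name GSNAP and mm10. Here each transcript counted once, without normalization. Its 6-base UMI was taken as deposited, and merging UMIs of a gene and cell that differed by 1 base left 591 of 614 carrier transcripts. Merging those that differed by a shift of 1 base as well left 546. The most frequent UMI held 244 transcripts of all genes, against 49 for the next. Of these 244, 131 were in VLMC-1 and 4 were of carriers. The PacBio runs were pooled (short, P4/C2, and long, P6/C4, chemistry). The run of a read was not taken from a label but inferred from the date in its name. Transcripts with a read of the long run may also hold reads of the short run. Cells are named by the study's cell types, and the first pair has another cell type in the labels.

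Exons were matched to GENCODE M21 models (GRCm38), from which junction and end sequences were read. Shares have exact Clopper-Pearson 95% intervals and ratios exact ones, and a count of 0 was set to 3 counts over the group for bounds. In these bounds the count of the other side was taken as exact, so its counting error is not in them. A carrier with 5 or more transcripts was called higher on a side by a ratio of 4-fold or more, whatever its interval. Named genes were Slc6a13, Slc1a3 and Slc1a2, the 12 carriers with the most transcripts, the 5 with the most among those found in VLMCs only and in oligodendrocytes only, and the 6 with the most transcripts that cover a first exon. Other genes in the text illustrate families, cells that stand apart or calls and were chosen after their values were seen. Carriers and lists were chosen with earlier results of these data known. Roles were assigned by family number. Of 10 markers a cell type, how many were found in each cell was counted. Lists of pericyte and microglia markers were also counted: the pericyte list gave 12 and 39 transcripts in VLMC-1 and VLMC-2 and 0 in the oligodendrocytes, and the microglia list gave 1 transcript, in VLMC-2.

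Alternatives were UMIs with 2 or more reads, merged UMIs, transcripts with a read of the long run, and those of the short run alone. Others were multi-gene entries, other tolerances, equal depth, longer other genes, carriers weighted equally and each cell left out. UMI merging with shifts, leaving out the most frequent UMI and leaving out both Oligo5 cells were added after the data had been seen. Some results are not reported here. The steps were tested on simulated data. Python 3.11.15 was used with numpy 2.4.6, pandas 2.3.3, scipy 1.17.1 and matplotlib 3.10.9.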

Additional observations from a re-analysis of the deposited data

Results flagged for a closer look

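Among 18 groups of 4 oligodendrocytes (the named carriers and the carrier share), 4 had a cell further from the others than the 95% limit of Dixon's test allows. For measured values chance gives about 1 in 20, but that rate does not hold for counts, since a carrier at 0 in 3 of these cells and found in the other is always past the limit and one at 0 in all 4 never is. In Oligo5-1, Slc1a3 stood out at 0.0679% with 0 in the other oligodendrocytes, and Slc38a2 at 0.0509%, on 3 transcripts against 2, 1 and 1 with overlapping intervals. In Oligo5-2, Slc1a2 stood out at 0.274% with 0 in the others. The share of all carriers was lowest in Oligo1-1, the deepest cell, at 1.17%. The entries that name 2 or more overlapping genes were left out of the counts, and 9 transcripts of such entries, above the limit of 3 counts, name a carrier. These had 1 transcript each in VLMC-1, VLMC-2 and Oligo1-2 and 2 each in Oligo1-1, Oligo5-1 and Oligo5-2.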

How the results depend on the processing

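No paired analysis was possible because the cells come from no named animals and share no replicate numbers that pair them. Most carriers have 1 to 3 transcripts, so whether a carrier is found in VLMCs, oligodendrocytes or both is limited by depth. With UMIs read 2 or more times, 46 carriers were found in oligodendrocytes only and 9 in both, 4 were 4-fold or more higher in VLMCs and 0 in oligodendrocytes, 3 were higher in both VLMCs than in every oligodendrocyte and 0 the other way, and the 6 carriers had 22 isoforms. Among transcripts with a read of the long run, 58 carriers were found in oligodendrocytes only and 7 in both. There 0 were 4-fold higher in oligodendrocytes, as with UMIs merged over shifts (0). Rarefied, 40.7 were found in oligodendrocytes only and 10.2 in both. Without both Oligo5 cells, 46 were found in oligodendrocytes only, 2 were 4-fold higher in oligodendrocytes and 9 were higher in every oligodendrocyte. With exact ends there were 66 isoforms, and over all transcripts of the genes 80. Leaving out each cell gave 13 to 26 carriers found in VLMCs only, 63 to 103 in oligodendrocytes only, 7 to 19 in both and 24 to 39 isoforms. It also gave 1 to 8 carriers 4-fold higher in VLMCs and 0 to 1 in oligodendrocytes. In every VLMC kept, 2 to 10 carriers had a larger share than in every oligodendrocyte kept, and 4 to 7 the other way. With a VLMC left out, that comparison rests on the other VLMC alone. Against other genes with models of 1500 bp or more, the difference in aligned length reversed to -4.92 bp (exact permutation, adjusted p = 0.969). For other counts the cause of a change was not tested beyond fewer transcripts or cells. Over the 17 named carriers, 188 of 206 values kept their call, 17 lost it, 1 gained it and 0 changed direction.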
